A study of Mus musculus with 2 samples.

Results

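The cytosolic ribosome is built from rRNA and a fixed set of ribosomal proteins, and the genes of 88 such proteins and their close relatives are described here in the livers of HFD-fed mice given an AAV for GFP or for the long noncoding RNA *Wee1-AS*. A gene was a member when its symbol in the deposited mRNA annotation of the mouse genome build mm10 began with *Rps*, *Rpl* or *Rplp* followed by a digit, or was *Rpsa*. Symbols of pseudogenes and of the ribosomal S6 kinases were left out. This rule gave 88 of 45777 gene symbols, of which 77 are core ribosomal proteins (31 of the small subunit, 43 of the large subunit and the 3 stalk genes *Rplp0*, *Rplp1* and *Rplp2*). A further 10 are paralogs or retrogenes of a core gene. *Rps19bp1* encodes a protein that binds the ribosomal protein Rps19 and is not itself a part of the ribosome. The symbol rule thus took in at least 1 gene that goes against the name of the set.

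Ribosomal protein mRNAs are among the most abundant transcripts of a hepatocyte, a cell that secretes most plasma proteins. Their products are made in near-equal numbers, since each ribosome carries a single copy of nearly all of them, and surplus protein is degraded. Most of these mRNAs begin with a C followed by a run of pyrimidines, the TOP motif, through which mTORC1 and the RNA-binding protein Larp1 switch their translation together. RNA sequencing of liver poly-A RNA reads the amount of the mRNA and not its translation.

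C57BL/6 N mice were fed a HFD for 18 weeks from the age of 7 weeks, and were injected with a virus behind the eye at week 13, which left 5 weeks of further feeding. The virus was either AAV-GFP (the control) or AAV-*Wee1-AS*. *Wee1-AS* is transcribed opposite to the *Wee1* gene. It was carried by an AAV9 vector with the CMV promoter, which is not restricted to hepatocytes, and both groups shared the strain, the diet and the viral delivery. One library of poly-A RNA per group was analysed, although the design text of the series mentions 4 livers. No spread between mice could therefore be estimated, the differences have no replicate check, and no p-value is given. Nothing in the labels says whether mice were pooled. The transgene itself was not analysed here.

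The estimated counts summed to 55464998 in the control library and 48078392 in the *Wee1-AS* library. They were scaled by TMM, and 15857 genes reached 10 counts in at least 1 library. Differences are given as log2 ratios, with the *Wee1-AS* library over the control. The exact 95% interval of each ratio covers counting error only, and PCR copies of a molecule are counted as if they were separate. It also takes the deposited counts as tallied reads. They are estimates that went with FPKM times transcript length, so the intervals can be narrower than the true counting error. Across all genes the log2 ratio fell with the GC content of the transcript (Spearman rho = -0.688, n = 15115 genes, which are not independent replicates) and was higher for longer transcripts (rho = 0.377). The median ran from 1.52 in the lowest of 10 equal groups of genes by GC content to -0.68 in the highest. Most results on the ribosomal protein genes are therefore given also with the GC and length trends of all genes removed. Counting intervals, TPM levels, single transcripts, pseudogenes, runs of C and T at the start and some paralog pairs are given without that removal. Of the hepatocyte markers, 4 were lower and 3 higher, with a summed level of 76987 and 86441 TPM in the control and *Wee1-AS* libraries. Erythroid markers were below 0 in 4 of the 4 that passed the count minimum (background 50.1% of all genes), with summed TPM of 2037 and 1101. Of these markers, 3 had a counting interval wholly below 0 (background 37.4%). With trends removed, their median was 0.11 and 3 of the 4 were above 0. The 3 neutrophil markers past the minimum were also below 0 (13.03 and 6.18 TPM, *Ly6g* at 0 in both). The intervals of 2 of them lay wholly below 0 (background 37.4%), and the median of the 3 was -1.59 with trends removed. Of the stellate cell markers, 4 of 5 were above 0 (summed TPM 93.9 and 122.5) and 1 of 5 was so with trends removed. Of the Kupffer cell markers, 3 of 5 were above 0, 2 of them past 2-fold (background 22.5% of all genes) and none with trends removed, and their summed TPM was 330.5 and 262.4. The part of these cells in the results below was not tested. In a piece of liver, fewer cells of a type and less RNA per cell cannot be told apart.

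The mRNAs of most ribosomal proteins were lower in the *Wee1-AS* library, with an interquartile range of the core log2 ratios from -0.69 to -0.25, whereas a small group led by *Rpl5*, *Rps3a1*, *Rpl23* and *Rpl7* was higher. All members together took 814749 counts of the control library, 1.47% of its total (exact 95% interval 1.466 to 1.472), and 510806 counts of the *Wee1-AS* library, 1.06% (1.060 to 1.065). The mRNAs encoded by the mitochondrial genome went from 2.99% to 6.23% of the counts, with 10 of 13 genes above 0, and their part in the share of the members was not tested. Of the 88 members, 85 passed the count minimum. *Rpl10l* and *Rpl39l*, paralogs known from testis, were at 0 in both libraries, and *Rpl3l*, a paralog known from muscle, had 3 counts and 0. The median log2 ratio of the 85 was -0.48, with 69 below 0 and 16 above. Over all genes compared, the median was -0.00 and 50.1% lay below 0. Removal of the GC and length trends took the median of the 85 to 0.07, with 39 below 0 (background 49.6% of all genes) and 46 above. The lower level of the set as a whole in the scaled counts was thus not present once those trends were taken out.

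Few members reached a 2-fold difference. Of the 85, 2 were lower by 2-fold (background 8.43% of all genes) and 1 was higher (background 22.5%). Past 1.5-fold, 33 were lower (background 23.3%) and 4 higher (background 32.1%). With trends removed, 11 members were past 1.5-fold on the lower side (background 16.6%) and 6 on the higher side (background 16.1%), and 6 were lower and 1 was higher by 2-fold (backgrounds 7.35% and 6.57%). The counts are deep enough that the counting interval of a core gene is narrow. It lay wholly below 0 for 62 of the 77 core genes (background 37.4% of all genes), wholly above 0 for 14 (background 39.6%) and across 0 for 1. These intervals compare 2 libraries and not 2 groups of mice.

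**Figure D1:**
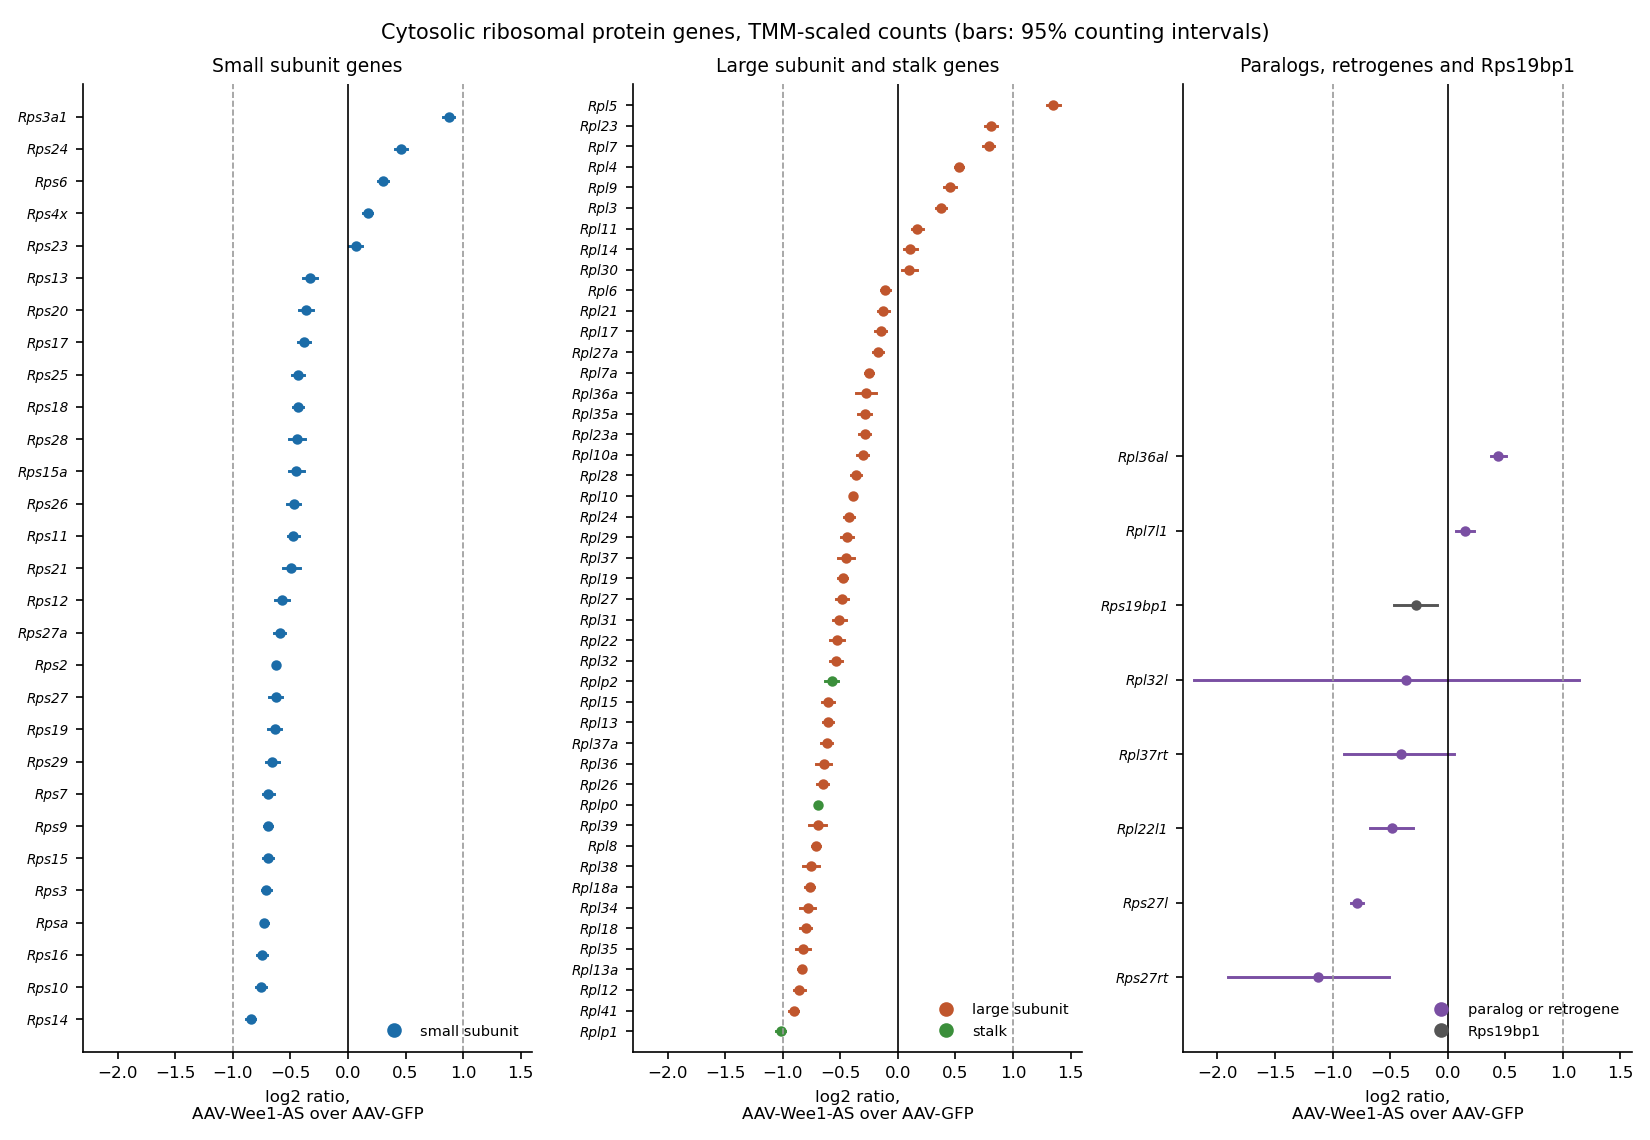
Log2 ratio of TMM-scaled counts (AAV-*Wee1-AS* over AAV-GFP, horizontal axis) for 83 of the 85 members past the count minimum, with 1 library per group. Points are genes, bars are exact 95% counting intervals and dashed lines mark 2-fold. In each core panel most genes lie to the left of 0, and *Rpl5* at 1.35 is the only point beyond the 2-fold line on the right.

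The small subunit decodes the mRNA. Its 31 genes had a median log2 ratio of -0.49 and ranged from -0.85 to 0.87, with 26 below 0 and 5 above. *Rps14* had 15044 counts in the control library and 6905 in the *Wee1-AS* library, a log2 ratio of -0.85. *Rps2* and *Rps9*, whose products lie near the mRNA entry channel, had 43767 and 23462 counts (-0.62) and 20381 and 10385 counts (-0.69). The opposite end of the subunit's range was held by *Rps3a1*, with 6135 and 9278 counts and a log2 ratio of 0.87 (0.83 to 0.92). *Rps24*, *Rps6* (the substrate of the S6 kinases), *Rps4x* and *Rps23* followed with log2 ratios of 0.46, 0.31, 0.17 and 0.07. With trends removed, the small subunit median was 0.07, with 14 genes below 0 and 17 above. *Rps3a1* stayed at 0.75, *Rps6* came to 0.43 and *Rps4x* to 0.12, while *Rps24* and *Rps23* turned to -0.02 and -0.17. *Rps14* came to -0.01, and *Rps2* and *Rps9* turned to 0.16 and 0.07.

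The large subunit joins the amino acids and holds the exit tunnel of the new protein chain. Its 43 genes had a median of -0.44 and a wider range than the small subunit, from -0.90 to 1.35, with 34 below 0 and 9 above. *Rpl41*, the shortest ribosomal protein, had 18331 and 8081 counts, a log2 ratio of -0.90 (-0.94 to -0.87). *Rpl12*, which lies at the base of the stalk, had 11349 and 5167 counts and a log2 ratio of -0.86 (-0.91 to -0.81). *Rpl13a*, *Rpl35* and *Rpl18* had log2 ratios of -0.84, -0.82 and -0.80. Each of these genes had at least 3156 counts in both libraries, so their position does not rest on low values. With trends removed, *Rpl12* was at -0.37 and *Rpl13a* at -0.23, while *Rpl41*, *Rpl35* and *Rpl18* were at 0.12, 0.22 and 0.16. The median of the large subunit was then 0.10, with 20 genes below 0 and 23 above.

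*Rpl5* stood at the upper end of all members. Together with Rpl11 and a small rRNA, Rpl5 forms a particle that is built into the large subunit, and free Rpl5, Rpl11 and Rpl23 are known to bind the ubiquitin ligase Mdm2. *Rpl5* (NCBI gene 100503670, chr5:107900508-107909005 in mm10) had 3717 counts in the control library and 7810 in the *Wee1-AS* library, a log2 ratio of 1.35 (1.29 to 1.41). It was the only member past 2-fold on the higher side. *Rpl23* had 5362 and 7735 counts (0.81, 0.76 to 0.86) and *Rpl7* had 6097 and 8696 (0.79, 0.74 to 0.84). *Rpl4*, whose product reaches into the exit tunnel, had 13386 and 15964 counts, a log2 ratio of 0.53. *Rpl11*, the partner of Rpl5 in the particle, had 7228 and 6694 counts and a log2 ratio of 0.17 (0.12 to 0.22). The 2 partners thus differed in size of ratio although both were above 0. With trends removed, *Rpl5* was at 0.32, *Rpl23* at 0.43, *Rpl7* at 0.36, *Rpl4* at 0.38 and *Rpl11* at 0.68, so that all kept their sign and *Rpl5* no longer led. *Rpl30*, at 0.10 in the scaled counts, was then the highest member at 1.01.

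The stalk recruits the GTPases that drive translation, and its genes were all lower in the *Wee1-AS* library. *Rplp1* had 17890 and 7298 counts, a log2 ratio of -1.02 (-1.06 to -0.98), and was the lowest core gene and the only core gene past 2-fold on the lower side. *Rplp0*, on which the acidic stalk proteins assemble, had 30210 and 15428 counts (-0.69). *Rplp2* had 7598 and 4208 counts (-0.57). The list median of -0.69 came to 0.05 with trends removed, and *Rplp1* itself to 0.05, *Rplp0* to -0.18 and *Rplp2* to 0.37.

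Ribosomal protein genes whose symbols fall outside the rule were looked at beside the members. *Rack1*, a scaffold for kinases on the small subunit, had 17919 and 9401 counts, a log2 ratio of -0.65. *Fau*, which encodes a small subunit protein fused to a ubiquitin-like protein, had 11093 and 5054 counts (-0.86). Both counting intervals lay wholly below 0 (background 37.4% of all genes). With trends removed, *Rack1* was at -0.44 and *Fau* at 0.24.

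Levels between genes were compared in TPM, which accounts for transcript length. Across the 77 core genes, the level in the control library ran from 29.6 to 1330 TPM with a median of 367, and in the *Wee1-AS* library from 21.1 to 841 TPM with a median of 274. The highest level in the control library was that of *Rps2* with 1330 TPM, against 841 in the *Wee1-AS* library. *Rpl41* had 1240 and 645 TPM, *Rplp1* had 1161 and 559, *Rpl10* had 1057 and 785, and *Rps9* had 880 and 529. These were also the first 5 in the *Wee1-AS* library, with *Rpl10* moved up to the second place. The order of the core genes was similar in both libraries (Spearman rho = 0.811 across 77 genes of the same 2 libraries, which are not independent replicates). *Rpl5* moved from the 77th to the 66th place among the 88 members, *Rpl9* from the 59th to the 16th and *Rpl4* from the 56th to the 12th, while *Rpl18* moved from the 34th to the 62nd. The lowest levels of core genes were those of *Rps15a* (29.6 and 21.1 TPM) and *Rps20* (50.7 and 38.2 TPM). The single transcripts listed for them are 5136 and 3446 bases long, against a median of 726 bases for the core genes, and a TPM value is divided by that length. In counts, *Rps15a* had 5008 and 3028 and *Rps20* had 5750 and 3677, within the range of the other core genes (2765 to 43767 in the control library).

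**Figure D2:**
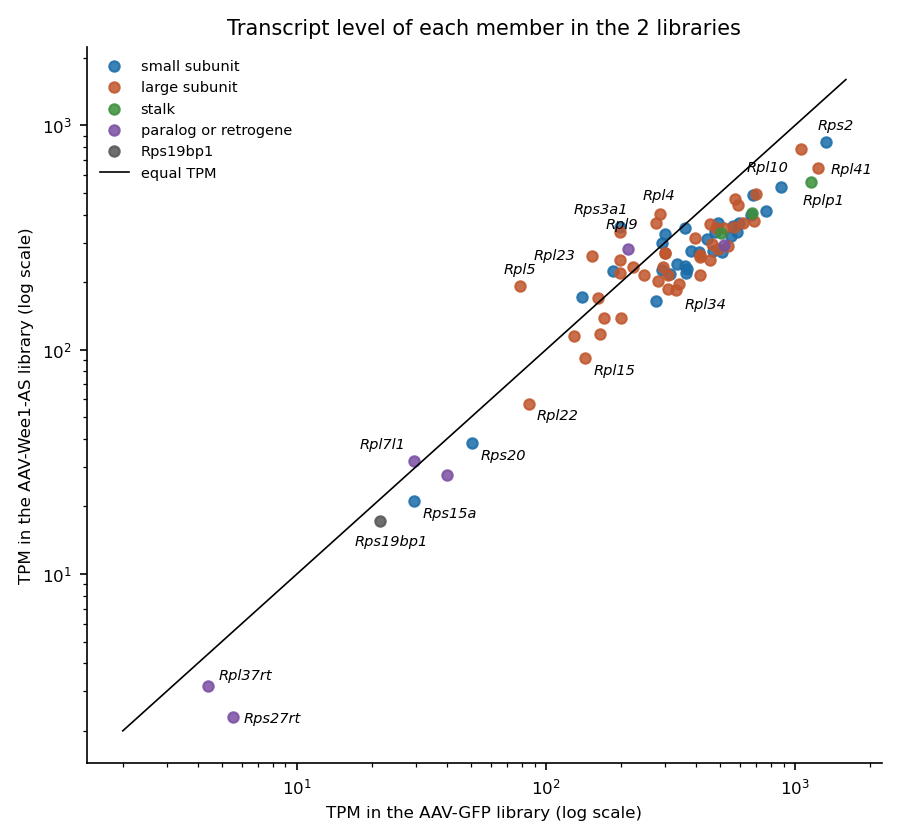
TPM of each member above 1 TPM in the control library (horizontal axis) and in the *Wee1-AS* library (vertical axis), both on log scales, with 1 library per group. Points below the line of equal TPM are lower in the *Wee1-AS* library, as are *Rps2* (1330 and 841 TPM) and *Rplp1* (1161 and 559 TPM), and *Rpl5* (79.0 and 192 TPM) lies farthest above the line.

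Paralogs and retrogenes are copies of core genes, and all but *Rpl36al* had a lower TPM than their parent gene in both libraries. The largest difference in log2 ratio between a copy and its parent among those past the count minimum was that of *Rpl36al*, the autosomal copy of the X-linked *Rpl36a*. *Rpl36al* had 3636 and 4065 counts (0.44, 0.37 to 0.50) and *Rpl36a* had 2765 and 1882 (-0.28, -0.36 to -0.19), a difference of 0.72. In TPM, *Rpl36al* made up 55.4% of the pair in the control library and 67.1% in the *Wee1-AS* library. *Rpl7l1*, a nucleolar relative of *Rpl7*, had a log2 ratio of 0.15 and *Rpl7* one of 0.79. *Rps27l* had 8771 and 4198 counts (-0.78) beside 6443 and 3434 of *Rps27* (-0.63), and made up 47.9% and 45.1% of the pair in TPM. *Rpl22l1*, whose splicing Rpl22 is known to repress, had 642 and 378 counts (-0.48) beside 6188 and 3536 of *Rpl22* (-0.53). With trends removed, *Rpl36al* was at 0.83 and *Rpl36a* at -0.39, while *Rps27l* was at -1.14 and *Rpl22l1* at -1.39, the latter 2 now past 2-fold.

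The copies *Rps27rt*, *Rpl37rt* and *Rpl32l* were low. *Rps27rt* had 69 and 25 counts, a log2 ratio of -1.13 (-1.91 to -0.51), the lowest of all members past the count minimum, and it was the other member lower by 2-fold (-1.23 with trends removed). *Rpl37rt* had 99 and 61 counts (-0.41, -0.91 to 0.05) beside 4722 and 2852 of *Rpl37* (-0.45), and *Rpl32l* had 10 and 6 (-0.37, -2.20 to 1.14) beside 8627 and 4910 of *Rpl32* (-0.54). These differences between the libraries were not detectable at this depth for *Rpl37rt* and *Rpl32l*. A retrogene is nearly identical to the mRNA of its parent, so the division of reads between them is uncertain. *Rps19bp1* had 590 and 401 counts (-0.28, -0.47 to -0.09) and turned to 0.54 with trends removed.

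The mouse genome also holds many processed pseudogenes of these genes. The table listed 224 pseudogene symbols of ribosomal proteins, with 15442 counts in the control library and 8922 in the *Wee1-AS* library. They made up 1.86% and 1.72% of the counts of members and pseudogenes together, and the log2 ratio of their sum was -0.51. The largest share was that of the pseudogenes of *Rpl15*, with 10.9% and 10.8% of the counts of gene and pseudogenes. Addition of the pseudogene counts to their genes left 69 members below 0 and the median at -0.48.

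For 36 members, several transcripts were listed. Of 144 transcripts of members with at least 10 counts in a library, 15 were lower by 2-fold (background 22.6% of 39605 transcripts) and 10 were higher (background 32%). Both transcripts of *Rpl5* were past 2-fold on the higher side, with log2 ratios of 1.45 and 1.23. In other genes the transcripts parted. The ubiquitin fusion gene *Rps27a* had 3031 and 668 counts for its longer transcript NM_001033865, which took 29.7% of the gene's counts in the control library (28.8 to 30.6) and 11.96% in the *Wee1-AS* library (11.1 to 12.8). Its other transcript had 7183 and 4919 counts. *Rpl6* went the other way: XM_006530227 took 7.02% (6.57 to 7.48) and 25.4% (24.6 to 26.3), while the gene as a whole had a log2 ratio of -0.11. *Rpl31* had 11.4% (10.7 to 12.2) and 4.52% (3.90 to 5.21) of its counts in NM_001252219. These intervals do not overlap between the libraries, but transcripts that share most of their sequence are told apart only by the reads that cover their differences. *Rps27a*, *Rpl6* and *Rpl31* were picked after their values were seen, and the share of all genes with such intervals is not given here.

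In *Rpl18*, *Rpl38* and *Rps19*, 3 of the 36 members with several transcripts, single transcripts were past 2-fold in opposite directions. The share of all genes with such opposed transcripts is not given here, so this count has no background. The shortest *Rpl18* transcript, NM_009077, had 6211 and 2115 counts (-1.28, 55.8% and 40.1% of the gene), whereas XM_030242247 had 169 and 311 (1.15). In *Rpl38*, a gene known for its part in the translation of Hox mRNAs in the embryo, the opposed transcripts held at most 2.20% of the counts, with 30 and 56 counts (1.12) and 25 and 4 counts (-1.95). In *Rps19*, a gene mutated in Diamond-Blackfan anaemia, NM_001360125 had 95 counts and 0, which makes it at least 26.1-fold lower against a floor of 3 counts, and NM_001360116 had 17 and 38 (1.33). A transcript of *Rpl19* with 379 counts and 0 was at least 104-fold lower against the same floor. It held 2.17% of the counts of *Rpl19* in the control library.

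Within the core genes, the log2 ratio also followed GC content. The Spearman coefficient across the 77 genes was -0.516 with GC content and 0.339 with transcript length, each a description of the same 2 libraries. When the core genes were split into 4 groups by GC content, the lowest group (41.3% to 48.6%) had a median of -0.22, with 8 of 20 genes above 0. In the groups above it, the medians were -0.53, -0.49 and -0.64, with 2, 3 and 1 of 19 genes above 0. *Rpl5* (42.7% GC), *Rpl7* (45.8%), *Rpl23* (46.4%) and *Rps3a1* (48.0%) belonged to the lowest group, while *Rplp1* and *Rpl41* (57.3% and 56.3%) belonged to the highest. Not all genes of low GC content were high, since *Rps20* (41.3%), *Rpl15* (43.2%) and *Rps15a* (45.4%) had log2 ratios of -0.37, -0.60 and -0.45. These came to -1.73, -1.51 and -1.50 with trends removed and were the 3 lowest members there. Their GC content and length were read from listed transcripts of 1841 to 5136 bases. After the removal, the coefficient with GC content across the core genes was 0.494, so the trend of all genes was steeper than that of the ribosomal protein genes and its removal turned the sign within the set.

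**Figure D3:**
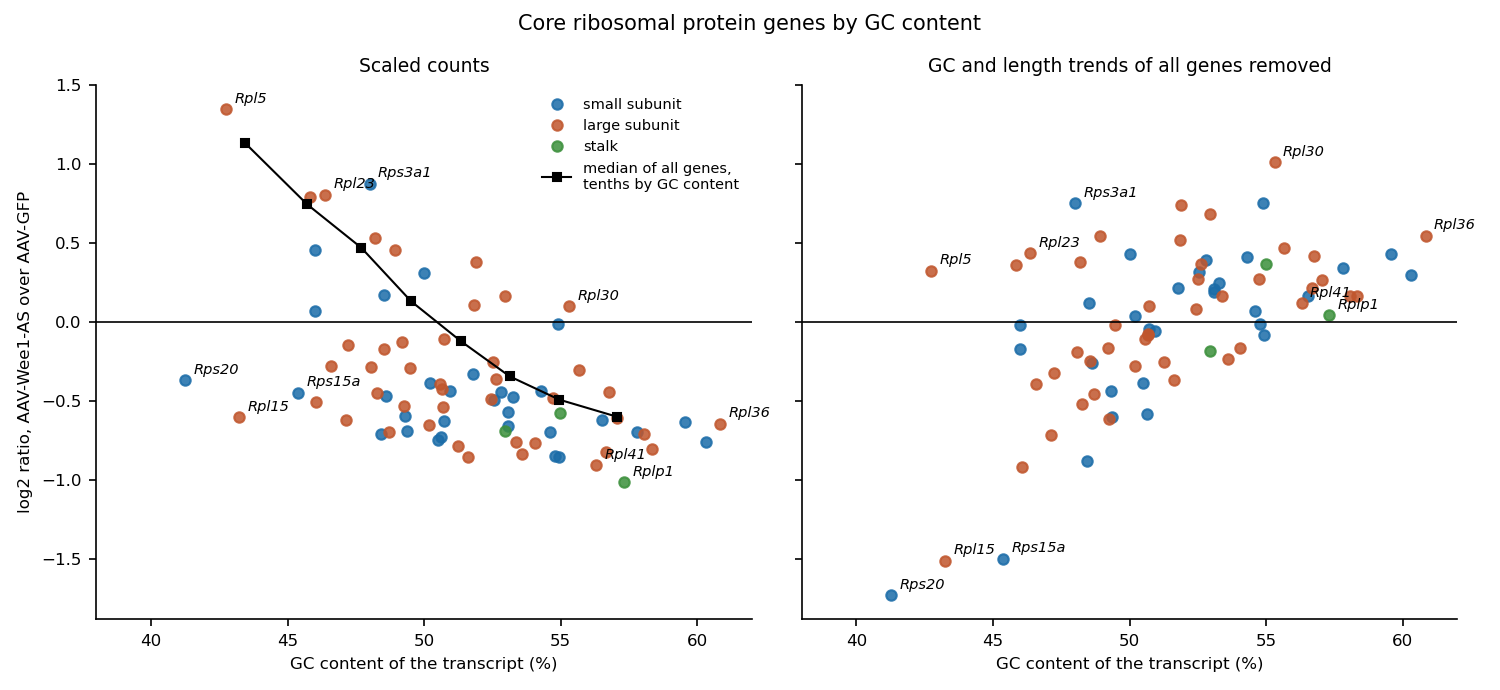
Log2 ratio (AAV-*Wee1-AS* over AAV-GFP) of the 77 core genes against the GC content of the transcript, from scaled counts (left) and with the GC and length trends of all genes removed (right), with 1 library per group. Squares on the left are medians of all genes in equal groups by GC content. Most core genes below 50% GC lie under the line of all genes, and *Rps20*, *Rpl15* and *Rps15a* lie lowest on the right (-1.73, -1.51 and -1.50).

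Many ribosomal protein genes carry snoRNAs in their introns, small RNAs that guide the modification of rRNA. By RefSeq annotation of GRCm38.p6, 30 of the 77 core genes held at least 1 snoRNA gene and 47 held none, a division made after the values were seen. The hosts had a median log2 ratio of -0.38 and 6 of 30 above 0, and the others one of -0.51 and 8 of 47 above 0. *Rpl4*, with the most snoRNAs (5), was at 0.53. *Rpl13a* and *Rpl7a*, with 4 each, were at -0.84 and -0.25. With trends removed, the medians were 0.04 and 0.08.

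The TOP motif lies at the first transcribed base, so the sequence around the annotated start was read for the members. RefSeq (GRCm38.p6) gave 67 start windows for 57 of the core genes. A window spans 15 bases on each side of the annotated start and is written 5′ to 3′ on the strand of the gene. Among the core genes with a window, those of the 4 with the lowest log2 ratio and of the 4 with the highest are shown, with the longest run of C and T in capitals, followed by that of *Rpl7a*, which has the longest run of all. The lower group comprises *Rpl41* (chr10:128549154-128549183, minus strand), *Rpl12* (chr2:32961697-32961726, plus strand), *Rpl13a* (chr7:45128731-45128760, minus strand) and *Rpl35* (chr2:39005117-39005146, minus strand). The higher group comprises *Rpl4* (chr9:64173372-64173401, plus strand), *Rpl23* (chr11:97782425-97782454, minus strand), *Rps3a1* (chr3:86142654-86142683, minus strand) and *Rpl5* (chr5:107900513-107900542, plus strand). *Rpl7a* lies at chr2:26910792-26910821 on the plus strand.
Rpl41: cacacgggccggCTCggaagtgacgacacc
Rpl12: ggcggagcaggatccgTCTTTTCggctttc
Rpl13a: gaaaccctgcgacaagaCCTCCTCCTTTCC
Rpl35: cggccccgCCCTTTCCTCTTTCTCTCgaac
Rpl4: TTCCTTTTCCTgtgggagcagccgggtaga
Rpl23: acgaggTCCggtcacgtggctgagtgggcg
Rps3a1: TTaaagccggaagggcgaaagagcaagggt
Rpl5: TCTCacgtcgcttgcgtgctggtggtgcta
Rpl7a: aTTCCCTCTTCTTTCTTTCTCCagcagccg

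The longest runs in these windows were 3 bases in *Rpl41*, 7 in *Rpl12*, 13 in *Rpl13a* and 18 in *Rpl35* among the lower genes, and 11 in *Rpl4*, 3 in *Rpl23*, 2 in *Rps3a1* and 4 in *Rpl5* among the higher ones. *Rpl7a*, with 21 bases, had a log2 ratio of -0.25. A run of at least 8 bases was found in 26 of the 67 core windows (38.8%) and in 3943 of 32851 windows of all genes. The letters CTTTC, on the sense strand within the window, were found in 23.9% of the core windows and in 4.05% of all windows. The 25 core genes with a run of at least 8 bases had a median log2 ratio of -0.51 with 4 above 0, and the 32 with shorter runs one of -0.47 with 7 above 0. The Spearman coefficient of log2 ratio and run length was -0.128 across these 57 genes. An annotated start can differ by some bases from the start used in the liver, and the missing run in *Rpl5* or *Rpl41* says only that these letters are not in this window.

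In the longer promoter sequence, from 250 bases before to 50 bases after the start and on both strands, CGGAAG was found in 62.7% of the core promoters and in 16.9% of all promoters. These letters hold the core of the ETS family motif. The 67 core promoters belong to 57 genes, and in both sets a gene with several annotated starts counts more than once. *Rplp1* and *Rpl7* are among the core genes without a promoter here. AAGATGG, letters of the YY1 motif, were found in 16.4% and 6.34%, CTTTC in 82.1% and 57.3%, and TATAA, letters of the TATA box, in 23.9% and 24.9%. CGGAAG and AAGATGG share the letters AAG and can overlap. Among factors that read such sequences, *Gabpa*, an ETS factor, had 299 and 1453 counts and a log2 ratio of 2.55 (2.38 to 2.74), and *Yy1* had 1319 and 2121 (0.96). With trends removed, *Gabpa* was at 0.97 and *Yy1* at 0.57. Of the 9 transcription factor genes listed for ribosomal protein promoters, 2 were higher by 2-fold (background 22.5% of all genes) and none was lower by it (background 8.43%), and none was past 2-fold with trends removed. The higher ones were *Gabpa* and *Sp1*, the latter at 1.48 with 589 and 1357 counts and at -0.13 with trends removed. *Myc* had 227 and 140 counts (-0.41, -0.73 to -0.11). *Zbtb17*, *Max* and *Mxd1* were likewise below 0, at -0.55, -0.43 and -0.30. With trends removed, *Max* was at -0.43 and *Mxd1* at -0.57, while *Zbtb17* turned to 0.03 and *Myc* came to -0.0009.

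Among the genes that make, assemble and use ribosomes, most lists had a median above 0 in the scaled counts, and the chaperones of ribosomal proteins had one below it. Elongation factors and other known TOP mRNAs had a median log2 ratio of 0.25, with 7 of 18 genes below 0. *Eef2*, the translocation factor, had 124141 and 71707 counts (-0.51) and *Eif3k* 4029 and 2090 (-0.67), while *Npm1* had 1517 and 3262 (1.38) and *Hnrnpa1* 516 and 1245 (1.54). With trends removed, these came to 0.04, 0.005, 0.40 and 0.93. Initiation factors had a median of 0.09, with 10 of 30 higher by 2-fold (background 22.5% of all genes) and none lower by it (background 8.43%). With trends removed, 1 of the 30 was past 2-fold on the higher side (background 6.57%). *Eif4a2*, an RNA helicase, had 1622 and 6639 counts (2.31) and *Eif5* 1855 and 5888 (1.94), while *Eif4h* was at -0.60 and *Eif2b2* at -0.54. These 4 came to 1.32, 0.54, -0.05 and 0.11 with trends removed.

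RNA polymerase I, which transcribes rRNA, had a median of 0.30 over 15 genes of subunits and factors, 3 of them past 2-fold on the higher side (background 22.5%) and 1 with trends removed (background 6.57%). Its termination factor *Ttf1* had 121 and 341 counts (1.75) and the subunit *Twistnb* 147 and 330 (1.43), while the subunit *Znrd1* had 536 and 258 (-0.77) and *Taf1c* 150 and 73 (-0.75). With trends removed, they were at 1.16, 0.16, -0.32 and -0.13. Ribosome assembly factors had the median farthest above that of the ribosomal protein genes but for the transcription factors, at 0.62 over 63 genes, with 44 above 0 and 19 past 2-fold on the higher side (background 22.5%). With trends removed, 4 of the 63 were past it on that side (background 6.57%). The pseudouridine synthase *Dkc1* had 139 and 468 counts (2.01) and the nucleolar protein *Ncl* 1927 and 5848 (1.88). *Eif6*, which keeps the large subunit from joining too early, had 5725 and 2416 counts (-0.97) and *Rrp9* 671 and 334 (-0.73). Removal of the trends took *Dkc1* to 1.05, *Ncl* to 0.12, *Eif6* to -0.18 and *Rrp9* to 0.11. The 8 chaperones that escort single ribosomal proteins had a median of -0.27, from *Grwd1* at -0.63 and *Aamp* at -0.59 to *Nap1l1* at 0.53 and *Bccip* at 0.71. Of these, *Grwd1*, *Aamp* and *Nap1l1* changed sign with trends removed (0.10, 0.15 and -0.50), and *Bccip* came to 0.09.

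The list of genes that control TOP mRNAs had a median of 0.32 over 20 genes, 5 of them past 2-fold on the higher side (background 22.5%) and 1 with trends removed (background 6.57%). It holds *Pdk1* (2061 and 5061 counts, 1.57), a symbol that in the mouse stands for a mitochondrial pyruvate dehydrogenase kinase and not for the kinase upstream of Akt. Without *Pdk1*, a choice made after the values were seen, the median over 19 genes was 0.03 with 4 past 2-fold on the higher side, and with trends removed it was -0.09 with 1 past it. *Larp1* had 5131 and 4313 counts (0.03, -0.03 to 0.09) and *Mtor* 3898 and 3109 (-0.05, -0.12 to 0.02), both with intervals across 0. They were at -0.09 and -0.30 with trends removed. *Akt1* was at -0.66 and *Eif4ebp1* at -0.63, and the RNA-binding proteins *Ssb* and *Tia1* were both at 2.07. With trends removed, *Akt1* turned to 0.04, *Eif4ebp1* was at -0.73, *Ssb* at 0.80 and *Tia1* at 0.90. The lists of translation, assembly and control genes had longer transcripts than the core ribosomal protein genes, whose median length was 726 bases, and all but the TOP control genes had a median GC content below the 51.3% of the core genes. The assembly factors had medians of 48.0% and 2613 bases. With trends removed, the medians of these lists and of the transcription factors came to lie between -0.03 and 0.14, beside 0.07, 0.10 and 0.05 for the small subunit, the large subunit and the stalk. Of the assembly factors, 43 of 63 were above 0 with trends removed, with 14 past 1.5-fold on the higher side (background 16.1%) and 3 on the lower (background 16.6%), beside 42 of the 77 core genes above 0.

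Mitochondrial ribosomal protein genes and a list of proteasome genes, 2 other sets for large complexes, lay between. The second list also holds genes that are not subunits, such as *Psmc3ip* (19 and 20 counts) and *Psmg1*. The 78 genes of the mitochondrial ribosome had a median log2 ratio of -0.30, with 58 below 0 and 20 above, beside 63 and 14 of the 77 core genes of the cytosolic ribosome. *Mrpl54* had 2056 and 862 counts (-0.97), *Mrpl4* 2181 and 998 (-0.85), *Mrpl47* 143 and 285 (1.26) and *Mrpl1* 334 and 856 (1.63). With trends removed, they came to 0.08, 0.01, 0.77 and 0.28. The 49 proteasome genes past the count minimum had a median of -0.24, from *Psmd8* at -0.84 and *Psmb3* at -0.70 to *Psmc6* with 764 and 2364 counts and *Psme4* with 1047 and 4292 (2.31), among those with at least 100 counts. With trends removed, both medians were near that of all genes, at 0.02 and 0.07. The standard deviation of the log2 ratio across genes was 0.47 for the core genes, 0.46 for the mitochondrial ribosome, 0.87 for the proteasome (which includes *Psma8*, with 0 and 26 counts) and 1.12 for all genes. With trends removed, these values were 0.50, 0.53, 0.58 and 0.79. The value for all genes includes genes with as few as 10 counts in only 1 library, where counting error is larger. Each core gene had at least 1882 counts in each library. The part of counting error in these spreads was not tested. With 1 library per group, none of these differences between sets could be tested.

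**Figure D4:**
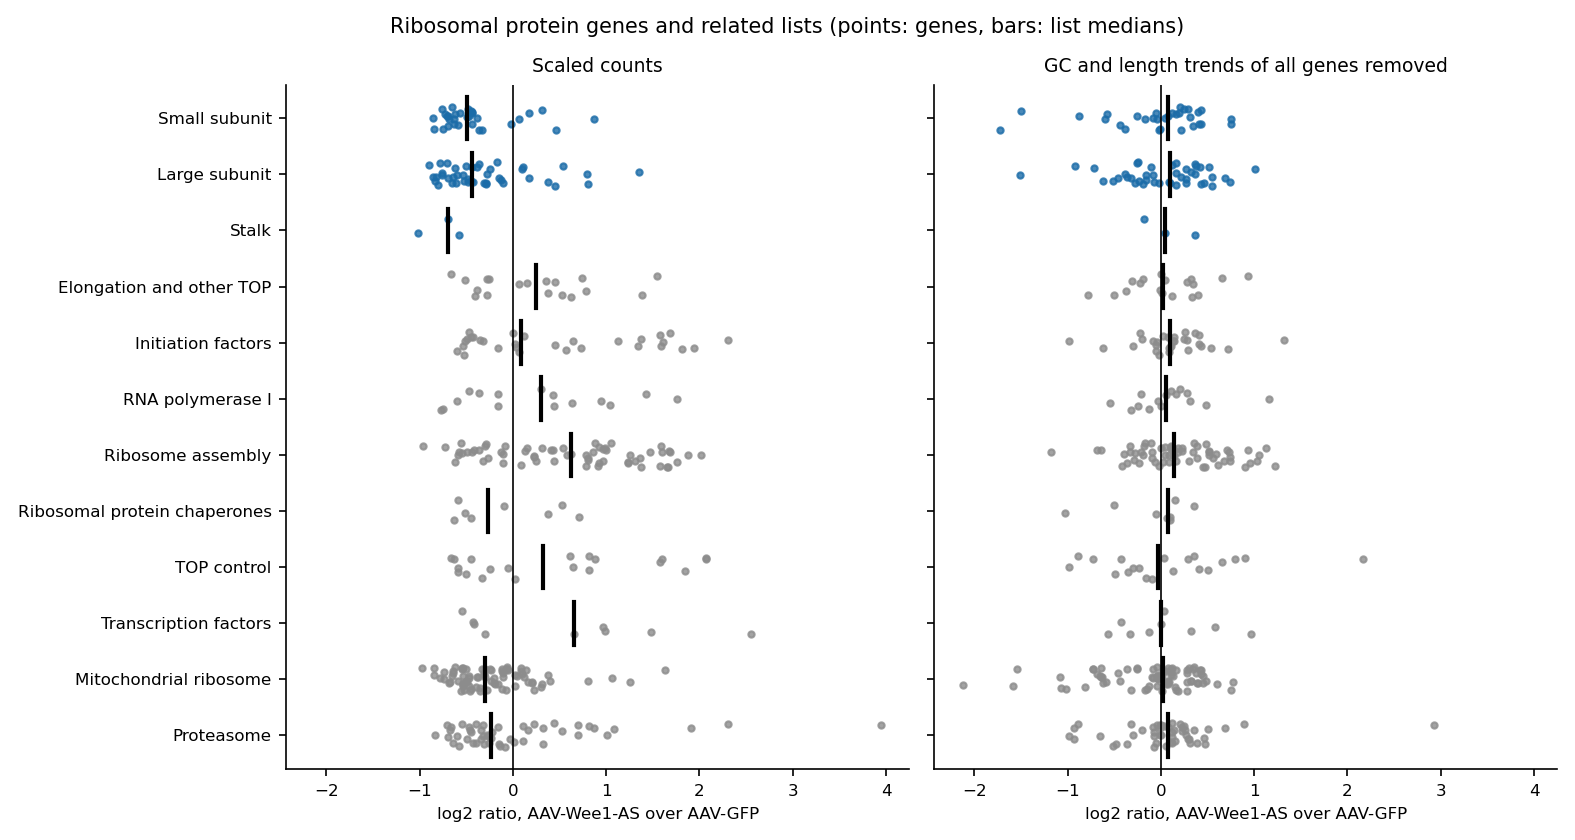
Log2 ratio (AAV-*Wee1-AS* over AAV-GFP) of each gene in the ribosomal groups (blue) and the related lists (grey), from scaled counts (left) and with the GC and length trends of all genes removed (right), with 1 library per group. Black bars are list medians. On the left the medians run from -0.69 (stalk) to 0.65 (transcription factors), and on the right the medians drawn lie between -0.03 and 0.14.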

How the data were processed

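Poly-A RNA of 1 liver library per group was sequenced in pairs. The submitters' processing notes name Trimmomatic 0.38, HISAT2 2.1.0, SAMtools 1.9, StringTie 2.1.3b and mm10, without their roles. The authors deposited an estimated count, an FPKM value and a TPM value for each of 129299 RefSeq transcripts. The deposited estimated counts divide the reads of a gene among transcripts that overlap, which makes near-identical copies uncertain. They were used as deposited.

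Members and gene lists were chosen with earlier results of these data known. Estimated counts were summed per symbol, for members over mRNA rows only, and scaled by TMM (edgeR 4.0.16, R 4.3.3). Log2 ratios used a prior count of 2. Exact (Clopper-Pearson) 95% intervals were taken from the estimated counts as if these were tallied reads. A difference was called past 2-fold or 1.5-fold, with no p-value. GC content came from GENCODE transcripts matched to the most counted transcript of each gene, and trends with GC content and length were removed by lowess (span 0.3, 5 cycles, statsmodels 0.14.6). The steps were tested on simulated data.

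Named genes are members past 2-fold, the 5 highest in TPM, the 4 highest and 4 lowest ratios with at least 100 counts, stalk genes, paralogs with parents, genes with opposed transcripts, *Rack1*, *Fau*, *Larp1*, *Mtor*, *Myc* and the 2 highest and 2 lowest of each list with at least 100 counts. Others were chosen after their values were seen, and some genes are not reported here. Alternatives were other scalings (DESeq2 1.42.0 size factors among them), FPKM and TPM with a pseudocount of 1, other count minimums, a prior count of 0.5, other member sets, 1 transcript per gene and added pseudogenes.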

Additional observations from a re-analysis of the deposited data

How the results depend on the processing

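Removal of the GC and length trends of all genes changed the results most. The members below 0 came from 69 to 39 of 85, those past 2-fold from 3 to 7, and the median turned from -0.48 to 0.072. Of 13 ribosomal groups and related lists, 2 instead of 7 had a median below 0. With the upper quartile it was 8 of them, and the median of the initiation factors turned to -0.04. *Rplp1* turned to 0.045 and *Sp1* to -0.13, and 25 of 71 named genes changed sign. The cause was not tested. The median of the members moved to -0.55 with library totals, -0.61 with the upper quartile, -0.54 with totals without the 20 most abundant genes and -0.53 with FPKM. The median of all genes moved to -0.07, -0.13, -0.06 and -0.03 under the same settings, so that the first 3 moves are common to all genes and that with FPKM is so in part. Under the alternatives other than trend removal that kept 85 members, those below 0 numbered from 67 to 72. The 67 came with the most abundant transcript of each gene, where the median was -0.43, and the 72 with the upper quartile. With core genes only, 63 of 77 were below 0, and with genes outside the rule added 72 of 88. Members past 2-fold numbered 2 to 4 under the alternatives other than trend removal. No paired analysis was possible because each group has 1 library, and for the same reason no library could be left out. Depth limits most *Rps27rt*, *Rpl37rt* and *Rpl32l*, which had under 100 counts.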
